A study of Mus musculus with 10 samples.

Results

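The genes described here are the 10 coenzyme Q synthesis genes Pdss1, Pdss2, Coq2, Coq3, Coq4, Coq5, Coq6, Coq7, Coq9 and Coq10a, chosen by symbol from a table of 15075 genes measured in interscapular brown adipose tissue (iBAT). All 10 were in the table, and all 10 passed the filter on low values that left 11244 genes for testing. RNA-seq libraries came from 5 AdCKO mice (labelled KO) and 5 Control mice (labelled WT), 1 library per mouse, all C57BL/6, aged 20 weeks and housed at room temperature. Every mouse carried Crls1 alleles with loxP sites around exon 4, and only AdCKO mice carried Adipoq-Cre, so recombination was limited to adipocytes while the other cells of the depot kept the gene. The values are normalized reads per kb of counted exon, which allow levels to be compared between genes.

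Coenzyme Q is a lipid of the inner mitochondrial membrane that takes electrons from complex I, complex II and several other dehydrogenases and passes them to complex III. It is built from a long isoprenoid tail, made from products of the mevalonate pathway, and an aromatic ring that a membrane-bound complex of Coq proteins hydroxylates, methylates and decarboxylates. Brown fat, packed with mitochondria, depends on this carrier for the respiration behind heat production.

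Of the 10 genes, 9 fell in AdCKO iBAT and 1, Pdss1, was not called. Coq10a fell most, to 25.3% of the Control mean, followed by Coq6 at 32.2% and Coq9 at 32.9%. The median log2 fold change of the 10 genes was -0.75, against -0.01 for all tested genes. Calls needed an adjusted p below 0.01 (limma's moderated test on log2(value + 1), two-sided, Benjamini-Hochberg adjustment over all 11244 genes), which 28.0% of tested genes met as lower and 25.6% as higher. The same 9 genes had every AdCKO library below every Control library, as had 26.4% of tested genes, while 50.9% did not overlap in either direction. After scaling all libraries to an equal total, 4 of the 10 were lower (Coq4, Coq6, Coq9 and Coq10a), where 9.77% of tested genes were, and Pdss1 was higher, where 60.6% were. That scaling moved the median of all tested genes to 0.46 and the share of lower genes among the calls from 52.3% to 13.9%.

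The libraries differed in ways that touch these results. Crls1 itself stood between 813 and 1291 normalized reads per kb in Control and between 193 and 249 in AdCKO. Summed normalized reads were 7615403 to 8171138 in Control libraries and 5419800 to 5843024 in AdCKO libraries. All 8 brown adipocyte markers were detected and 6 of them were lower, while Elovl3 (log2 fold change -0.06) and Dio2 (0.90, from 162 ± 80.5 to 285 ± 69.9, limma adjusted p = 0.015) were not called. Their summed level, made up mostly of Ucp1 and Cidea, was 51279 to 75597 in Control and 16250 to 36101 in AdCKO. The 7 macrophage markers were all higher in AdCKO (summed level 421 to 1198 in Control, 5719 to 7807 in AdCKO), while 4 of 7 general adipocyte markers were lower (160804 to 194320 against 115749 to 135256). Per 100 summed normalized reads of the library, the general adipocyte sums overlapped (2.06 to 2.50 in Control, 2.14 to 2.37 in AdCKO). The brown adipocyte sums did not (0.6734 to 0.9752 against 0.287 to 0.618). These are sums of values per kb, so the figures are not percentages of reads. The general adipocyte sum was made up mostly of Fabp4 (mean 147241 in Control, 108235 in AdCKO), which was not called. Its overlap therefore describes mostly that gene. The 8 skeletal muscle markers summed to 87.1 to 115 in Control, to 120.0 and 133 in AdCKO replicates 5 and 3, and to 5434, 20356 and 7756 in AdCKO replicates 1, 2 and 4. Without those 3 libraries the same count of 9 genes was lower, an alternative added after seeing the data. Of 5 endothelial markers Pecam1 was higher (log2 fold change 0.55, limma adjusted p = 0.00061) and 4 were not called. Their sums overlapped as deposited (1303 to 1639 in Control, 1348 to 1833 in AdCKO) and were separate per 100 summed reads (0.0159 to 0.0211 and 0.0236 to 0.0338). Of 5 lymphocyte markers 3 were tested and 0 called by limma (0 also at an unadjusted p under 0.05), and 1 marker stayed under 10 in all libraries. Their sum was 26.0 to 35.0 in Control, 157 in AdCKO replicate 1 and 25.3 to 38.2 in the other AdCKO libraries. In bulk tissue, fewer cells of a type and less RNA per cell cannot be told apart.

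**Figure D1:**
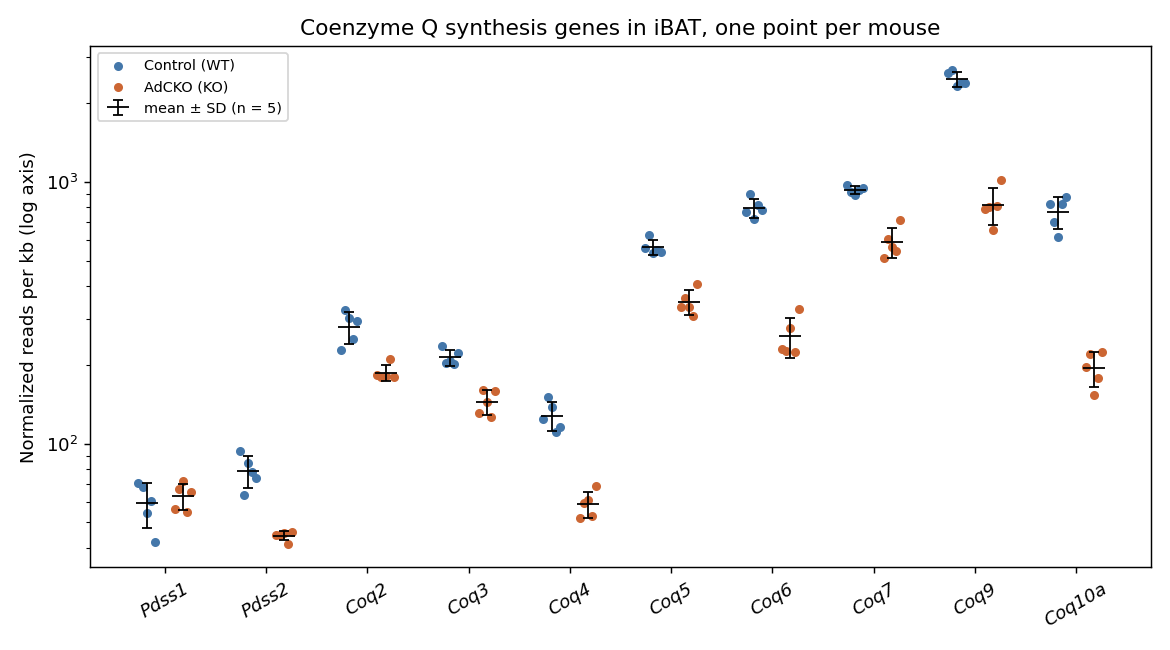
Normalized reads per kb (log axis) of the 10 genes in every library, with Control in blue, AdCKO in orange and bars for the mean and SD of 5 mice. The groups are separate for 9 genes, with Coq9 the most abundant in both, and they overlap for Pdss1.

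The isoprenoid tail is made by a synthase with subunits encoded by Pdss1 and Pdss2. Pdss1 (NM_019501, chr2:22751042-22795779, plus strand, mm9) was at 70.9, 68.4, 54.3, 60.5 and 42.0 normalized reads per kb in the 5 Control libraries and at 56.0, 67.1, 71.8, 55.0 and 65.1 in the 5 AdCKO libraries. These ranges lay over each other. The log2 fold change was 0.10 (SE 0.13, 95% interval -0.19 to 0.40, limma adjusted p = 0.52), and its sign turned without Control replicate 5 (-0.012). In the annotation 4.41% of Pdss1 exon bases are shared with Abi1 and 4.88% with a pseudogene, both on the opposite strand, and whether the counting used strand is not given in the sources used here.

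Pdss2 (NM_001168289, chr10:42941292-43184688, plus strand), the partner subunit, was at 93.5, 63.7, 84.2, 77.6 and 73.9 in Control and at 44.7, 44.6, 45.5, 41.4 and 46.0 in AdCKO. Every AdCKO library was below every Control library, and the AdCKO values were held within a narrow band. In limma the change came to -0.80 on the log2 scale (SE 0.09, adjusted p = 1.15e-05), and at equal library totals to -0.32 (adjusted p = 0.013), no longer called.

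Coq2 encodes the prenyltransferase that joins tail and ring. It was at 228, 323, 301.5, 249.9 and 293 normalized reads per kb in Control and at 184, 180.4, 181, 209.6 and 179.7 in AdCKO. The groups did not overlap, although the highest AdCKO library (replicate 4) came close to the lowest Control library (replicate 1). Together with Coq3, Coq2 had the smallest fall of the 9, by 0.57 on the log2 scale (SE 0.10, adjusted p = 0.00023 in limma).

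The ring is then modified by a hydroxylase, Coq6, the methyltransferases Coq5 and Coq3, and a late hydroxylase, Coq7. Among these 4 genes Coq6 fell far more than the rest. Coq6 (NM_172582, chr12:85702918-85714746, plus strand), a flavin monooxygenase, was at 765, 898, 723, 815 and 779 in Control and at 231, 227, 276, 223 and 326 in AdCKO. The Control mean was 3.10 times the AdCKO mean. On the log2 scale it changed by -1.64 (SE 0.11, adjusted p = 1.16e-07 in limma), and 1.35% of tested genes had a change as low or lower.

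Coq5, the C-methyltransferase, was at 558, 626, 537, 549.8 and 539 in Control and at 334, 361, 332, 307 and 406 in AdCKO. Coq3, the O-methyltransferase, was at 236, 203, 206, 201 and 221 in Control and at 131, 160.0, 144, 126 and 159 in AdCKO. Coq7 was at 970.4, 913, 893, 933 and 950.1 in Control and at 514, 605, 563, 544 and 713 in AdCKO. In all 3 genes the groups were separate, and their AdCKO means were 62.0%, 67.4% and 63.1% of the Control means. The log2 fold changes were -0.69 for Coq5, -0.57 for Coq3 and -0.67 for Coq7 (SE 0.08, 0.08 and 0.09; limma adjusted p = 1.12e-05, 7.34e-05 and 2.19e-05). At equal library totals the values were -0.21, -0.091 and -0.19 for these 3 genes and -0.087 for Coq2, and none of the 4 was called (limma adjusted p = 0.015, 0.31, 0.035 and 0.40).

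Coq9 encodes a lipid-binding protein that works with Coq7. It was the most abundant gene of the set, at 2611, 2685, 2318, 2388 and 2378 normalized reads per kb in Control and at 784, 803, 653, 809.9 and 1019 in AdCKO. The highest AdCKO library, replicate 5, was far below the lowest Control library. The mean fell from 2476 ± 161 to 814 ± 131 (SD, n = 5 each). Its log2 change of -1.62 had an SE of 0.11 (adjusted p = 1.05e-07 in limma), and 1.45% of tested genes changed as low or lower.

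Coq4, which acts on the ring and helps hold the complex together, was at 124, 151, 138, 111 and 116 in Control and at 51.7, 59.5, 60.9, 52.9 and 68.6 in AdCKO. These groups did not meet. Coq4 changed by -1.11 on the log2 scale (SE 0.10, adjusted p = 1.56e-06 in limma). Of its exon bases 6.61% are shared with Trub2 on the opposite strand.

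Coq10a encodes a protein of the START family that binds coenzyme Q and is needed for its use in respiration rather than for its synthesis. It is kept here as a member of the set chosen by symbol. Coq10a (NM_001081040, chr10:127800153-127807093, minus strand) was at 822, 704, 615, 825 and 875 in Control and at 197, 219.6, 153, 178 and 224 in AdCKO. Every Control library was well above every AdCKO library. The mean fell from 768 ± 106 to 194 ± 29.8 (SD, n = 5 each). On the log2 scale this was -1.98 (SE 0.12, 95% interval -2.25 to -1.71, adjusted p = 7.63e-08 in limma). Only 0.685% of tested genes had a change as low or lower. With the muscle score as a covariate the log2 fold change was -2.05 for Coq10a and -0.61 for Coq2, both larger falls than without it. The falls of Pdss2, Coq3, Coq4, Coq5, Coq6, Coq7 and Coq9 were smaller with it, with Coq6 at -1.41 and Coq4 at -0.98. High muscle markers were found only in AdCKO replicates 1, 2 and 4. Their sums in AdCKO replicates 5 and 3 (120.0 and 133) were near those of Control (87.1 to 115). Without AdCKO replicates 1, 2 and 4 the log2 fold change was -2.04 for Coq10a, -1.60 for Coq9, -1.40 for Coq6 and -0.96 for Coq4. In that fit and in the one with the covariate, 9 genes were lower. The part of muscle in the falls was not tested.

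**Figure D2:**
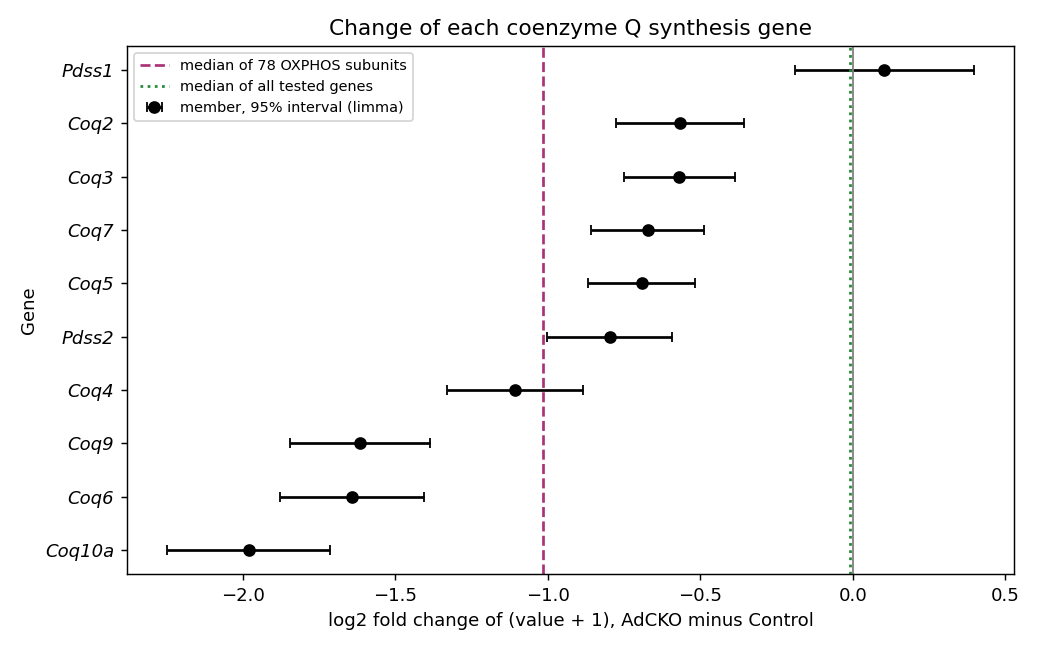
The log2 fold change of each gene (AdCKO minus Control, points) with its 95% interval from limma (bars), beside the median of 78 oxidative phosphorylation subunits (dashed) and of all tested genes (dotted). Coq10a, Coq6 and Coq9 lie well left of the subunits' median, Coq4 just left of it and Pdss1 at about 0.

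The windows before the annotated starts of these genes were read from mm9, and 3 are shown because they belong to the gene that fell most, to the most abundant gene and to the gene that was not called. Each holds the 250 bases upstream of the outermost annotated start, 5′ to 3′ on the gene's strand, with every CpG in capitals. They lie at chr10:127807094-127807343 on the minus strand for Coq10a, chr8:97361971-97362220 on the plus strand for Coq9 and chr2:22750792-22751041 on the plus strand for Pdss1.
Coq10a: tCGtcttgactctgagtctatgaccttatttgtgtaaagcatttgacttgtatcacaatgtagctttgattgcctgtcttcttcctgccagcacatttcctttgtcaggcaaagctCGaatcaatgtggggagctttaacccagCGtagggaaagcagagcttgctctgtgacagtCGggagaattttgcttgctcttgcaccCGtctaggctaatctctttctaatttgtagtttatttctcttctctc
Coq9: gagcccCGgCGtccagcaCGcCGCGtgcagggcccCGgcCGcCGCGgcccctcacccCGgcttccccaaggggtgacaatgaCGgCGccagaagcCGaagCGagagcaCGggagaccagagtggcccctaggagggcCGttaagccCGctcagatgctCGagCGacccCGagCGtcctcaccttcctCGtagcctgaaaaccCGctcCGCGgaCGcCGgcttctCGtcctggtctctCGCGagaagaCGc
Pdss1: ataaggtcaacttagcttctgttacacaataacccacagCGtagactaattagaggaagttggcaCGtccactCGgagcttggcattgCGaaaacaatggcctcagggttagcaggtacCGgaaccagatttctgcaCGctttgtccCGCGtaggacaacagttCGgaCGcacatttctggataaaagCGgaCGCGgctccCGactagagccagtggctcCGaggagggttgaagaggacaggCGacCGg
The Coq10a window holds 5 CpG and the Coq9 window 31, against a median of 13 over the windows of all 15075 genes. As few CpG as Coq10a were found in 23% of windows, and as few as Coq9 in 93.2%. The Pdss1 window holds 17. The window of Coq6, whose fall was next to that of Coq10a, is not printed and holds 9. Whether CpG content bears on the falls was not tested.
Searched on both strands, none of the 10 windows held the NRF1 motif (in 6.5% of all windows), TCAAGGTCA (estrogen-related receptors, 0.318%), CCGGAAGT (ETS factors, 4.5%), TGACGTCA (CREB family, 2.28%) or TGATGNAA (ATF4 with C/EBP, 2.17%). CCAAT was present before Coq6 and Coq7, 2 of the 10 windows, and in 35.5% of all windows. A missing match says only that these letters are not in the window. Some windows lie away from the start of the counted RefSeq transcript, among them those of Coq2, Coq4, Coq6 and Coq9. The Coq9 window ended at base 97362220 of chr8, and its RefSeq transcript started at 97362317. The Coq4 window ended at base 29643012 of chr2, and its RefSeq transcript started at 29643783. Sequence nearer to those RefSeq starts was not searched.

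Subunits of the oxidative phosphorylation complexes fell as well, with 74 of 78 called lower, 1 called higher and a median log2 fold change of -1.01. To test whether a coenzyme Q gene changed by more or less than these subunits, the mean log2 value of the 78 subunits was subtracted in every library before the fit; multiplying a whole library by a factor then has little effect. On this relative scale 3 of the 10 genes were lower, where 2.49% of tested genes were: Coq10a at -1.003 (SE 0.14, limma adjusted p = 6.73e-06), Coq6 at -0.66 (SE 0.09, limma adjusted p = 6.88e-06) and Coq9 at -0.64 (SE 0.12, limma adjusted p = 0.00012). Of the 78 subunits themselves, 19 were lower and 15 higher on this scale, so a fall beyond the subunit mean was not particular to these genes. For Coq10a the log2 difference from the subunits was -1.77, -2.30, -2.35, -2.001 and -1.91 in Control and -2.90, -2.91, -3.49, -2.96 and -3.08 in AdCKO. For Coq6 it was -1.87, -1.95, -2.12, -2.02 and -2.08 against -2.67, -2.86, -2.64, -2.64 and -2.55. For Coq9 it was -0.11, -0.37, -0.44, -0.47 and -0.47 against -0.91, -1.04, -1.40, -0.78 and -0.91. In each of the 3 genes the groups were separate on this scale too. These 3 calls were kept in all 23 alternatives, which left out 1 library, 3 libraries or none.

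Relative to the same subunits 5 genes were higher, where 84.2% of tested genes were. Pdss1 was the highest of these at 1.08 (SE 0.15, limma adjusted p = 7.38e-06), near the median of 0.97 over all tested genes on this scale. Its call was kept in all 23 alternatives, although with quantile normalization its value was 0.45 (limma adjusted p = 0.0087). Coq2 (0.41), Coq3 (0.41), Coq7 (0.30) and Coq5 (0.29) were below that median and closer to the threshold (limma adjusted p = 0.0065, 0.0026, 0.0071 and 0.0083). The count of 5 was 3 without Control replicate 2, Control replicate 3 or AdCKO replicate 2, and 2 without Control replicate 4, Control replicate 5, AdCKO replicate 1 or AdCKO replicate 4. It was 1 with the muscle score as a covariate, 1 without AdCKO replicates 1, 2 and 4, and 1 with quantile normalization, where Coq2 (-0.035), Coq3 (-0.067), Coq5 (-0.088) and Coq7 (-0.021) turned their sign. Coq4 (-0.13, 95% interval -0.36 to 0.11) and Pdss2 (0.18, -0.13 to 0.49) were not called, and both were called lower with quantile normalization (-0.71 and -0.47).

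**Figure D3:**
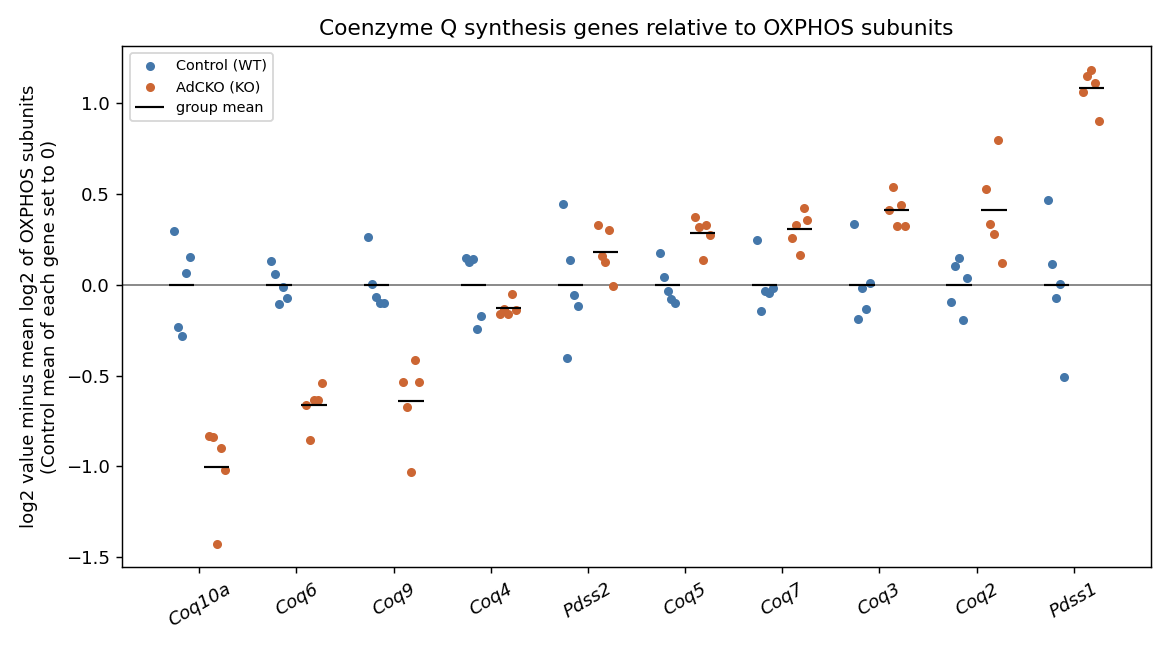
Log2 value of each gene minus the mean log2 value of the oxidative phosphorylation subunits in the same library, with the Control mean of each gene set to 0 (points are libraries, lines group means). AdCKO libraries lie below all Control libraries for Coq10a, Coq6 and Coq9, and above them all for Pdss1.

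In Control iBAT the order of levels ran from Coq9 (2476 ± 161) over Coq7 (932 ± 30.2), Coq6 (796 ± 65.8), Coq10a (768 ± 106) and Coq5 (562 ± 36.8) to Coq2 (279 ± 38.9), Coq3 (214 ± 14.9), Coq4 (128 ± 16.3), Pdss2 (78.6 ± 11.1) and Pdss1 (59.2 ± 11.6), in normalized reads per kb (SD, n = 5). The transcripts of the tail synthase subunits were thus the least abundant of the set, and the Coq9 transcript was 41.8 times as high as that of Pdss1. Protein levels were not measured here. Neighbours overlapped between Coq7 and Coq6, Coq6 and Coq10a, Coq10a and Coq5, Coq2 and Coq3, and Pdss2 and Pdss1. In AdCKO iBAT the order was Coq9 (814 ± 131), Coq7 (588 ± 77.3), Coq5 (348 ± 37.4), Coq6 (257 ± 44.5), Coq10a (194 ± 29.8), Coq2 (187 ± 12.8), Coq3 (144 ± 15.8), Pdss1 (63.0 ± 7.28), Coq4 (58.7 ± 6.84) and Pdss2 (44.5 ± 1.79). There Coq9 and Coq7, Coq5 and Coq6, Coq6 and Coq10a, Coq10a and Coq2, and Pdss1 and Coq4 overlapped. The span from the highest to the lowest gene narrowed to 18.3-fold.

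Ratios of partner and paralog genes within a library, chosen after the values were seen, do not depend on the scaling of the library. The Pdss1 to Pdss2 ratio was 0.5684 to 1.074 in Control and 1.25 to 1.58 in AdCKO, so the more abundant transcript of the synthase changed from Pdss2 in 4 of 5 Control libraries to Pdss1 in every AdCKO library. The Coq9 to Coq7 ratio went from 2.66 ± 0.17 to 1.39 ± 0.15 (SD, n = 5 each). Coq10a stood at 1.70 to 2.31 times its paralog Coq10b in Control and at 0.366 to 0.744 times it in AdCKO. Because the pairs were chosen for values already seen to move apart, these ratios are a description, and no p-value is given for them.

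**Figure D4:**
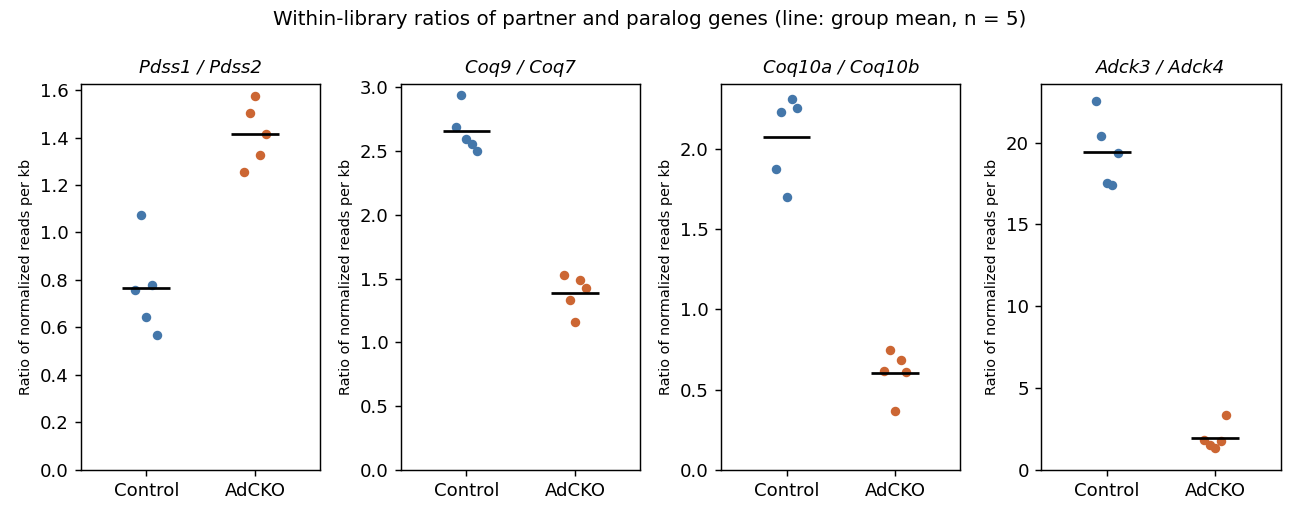
Ratio of normalized reads per kb of 4 gene pairs in every library (points) with the group mean (lines), each axis starting at 0. The Pdss1 to Pdss2 ratio is higher in all AdCKO libraries and the other ratios are lower in all of them.

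Of 11 listed genes whose proteins assist the pathway or belong to its families, 5 were lower, 3 were higher and 3 were not called, where 28.0% of tested genes were lower and 25.6% higher, with a median log2 fold change of -0.18. Adck3, now named Coq8a, encodes an atypical kinase-like ATPase that supports the synthesis complex, and its fall exceeded those of all 10 genes of the chosen set. It was at 2668, 3106, 2574, 2223 and 2315 in Control and at 261, 269, 205, 301 and 628 in AdCKO. Every AdCKO library was below every Control library, and replicate 5 was higher than the other 4. Adck3 changed by -3.06 on the log2 scale (SE 0.24, adjusted p = 4.25e-07 in limma), and by -2.08 relative to the oxidative phosphorylation subunits. Of its exon bases 7.15% are shared with Cdc42bpa.

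Adck4, now named Coq8b and the paralog of Adck3, was at 133 ± 15.6 in Control and 167 ± 17.7 in AdCKO, and its groups overlapped. The log2 fold change of 0.33 (limma adjusted p = 0.0089) was no longer called without Control replicate 1, 4 or 5 or AdCKO replicate 2, 4 or 5 (limma adjusted p = 0.024, 0.021, 0.026, 0.024, 0.020 and 0.023). The call was also lost with no filter on low values (limma adjusted p = 0.0102) and without limma's trend (0.0113). It was lost too with the muscle covariate (0.043) and without AdCKO replicates 1, 2 and 4 (0.040). Adck3 was 17.4 to 22.5 times as high as Adck4 in Control and 1.33 to 3.37 times in AdCKO. The other called genes of this list that were higher were Hpdl, which acts in making the ring precursor (1.10, SE 0.12, limma adjusted p = 5.46e-06), and Fdxr, which passes electrons to mitochondrial ferredoxins (0.76, SE 0.14, limma adjusted p = 0.00053). Hpdl ranged over 52.0 to 77.3 in Control and over 125 to 160.2 in AdCKO, without overlap. Adck1 (-0.86), Adck2 (-0.74) and Stard7 (-0.62), a lipid transfer protein, were lower. Coq10b was at 372 ± 45.0 in Control and 332 ± 61.9 in AdCKO (log2 fold change -0.18, limma adjusted p = 0.24). Coq10b was named after its values were seen. At equal library totals 2 genes of this list were lower and 5 higher, where 9.77% of tested genes were lower and 60.6% higher.

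Enzymes that supply the isoprenoid building blocks also fell. Of 9 listed genes 8 were in the table, and 6 of these were lower, 0 higher and 2 not called by limma, with a median of -0.85. Of all tested genes 28.0% were lower and 25.6% higher. At an unadjusted p under 0.05 limma also gave 0 higher. The smallest p-values were those of Acat2, the thiolase that starts the pathway in the cytosol (-1.83, SE 0.12, limma adjusted p = 8.6e-08), Idi1, the isopentenyl diphosphate isomerase (-1.32), Pmvk (-1.49) and Mvk (-0.74), both kinases of the mevalonate pathway. Acat2 stood between 901 and 1248 in Control and between 249 and 342 in AdCKO. At equal library totals 3 of the 8 were lower and 1 was higher, where 9.77% of tested genes were lower and 60.6% higher.

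Of the 12 listed genes for enzymes that hand electrons to coenzyme Q 11 were lower and 1 was higher, with a median log2 fold change of -1.13. Of all tested genes 28.0% were lower and 25.6% higher. Sdha, Sdhb, Sdhc and Sdhd in this list encode subunits of 1 enzyme, complex II, and are also among the 78 oxidative phosphorylation subunits. Chdh, which oxidizes choline, was at 236 ± 13.5 in Control and 69.5 ± 7.67 in AdCKO (-1.75, SE 0.08, limma adjusted p = 1.13e-08). Etfdh, through which fatty acid oxidation feeds electrons in, changed by -1.52, Gpd2 of the glycerol phosphate shuttle by -1.87 and Sdha of complex II by -1.61. Relative to the 78 subunits, 5 of these 12 genes were lower and 2 higher, with Gpd2 at -0.90 and Chdh at -0.78. Nqo1, a cytosolic quinone reductase, went the other way, from 14.9 to 18.7 in Control to 25.4 to 32.6 in AdCKO (0.76, SE 0.10, limma adjusted p = 2.46e-05). On the taking side, all 9 listed subunits of complex III, which are also among the 78, were lower, with a median of -1.14. Uqcrc1 changed most among the 4 with the smallest p (-1.48), followed by Uqcrfs1 (-1.22), Cyc1 (-1.19) and Uqcrc2 (-1.14). With quantile normalization 5 of these 9 were lower.

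**Figure D5:**
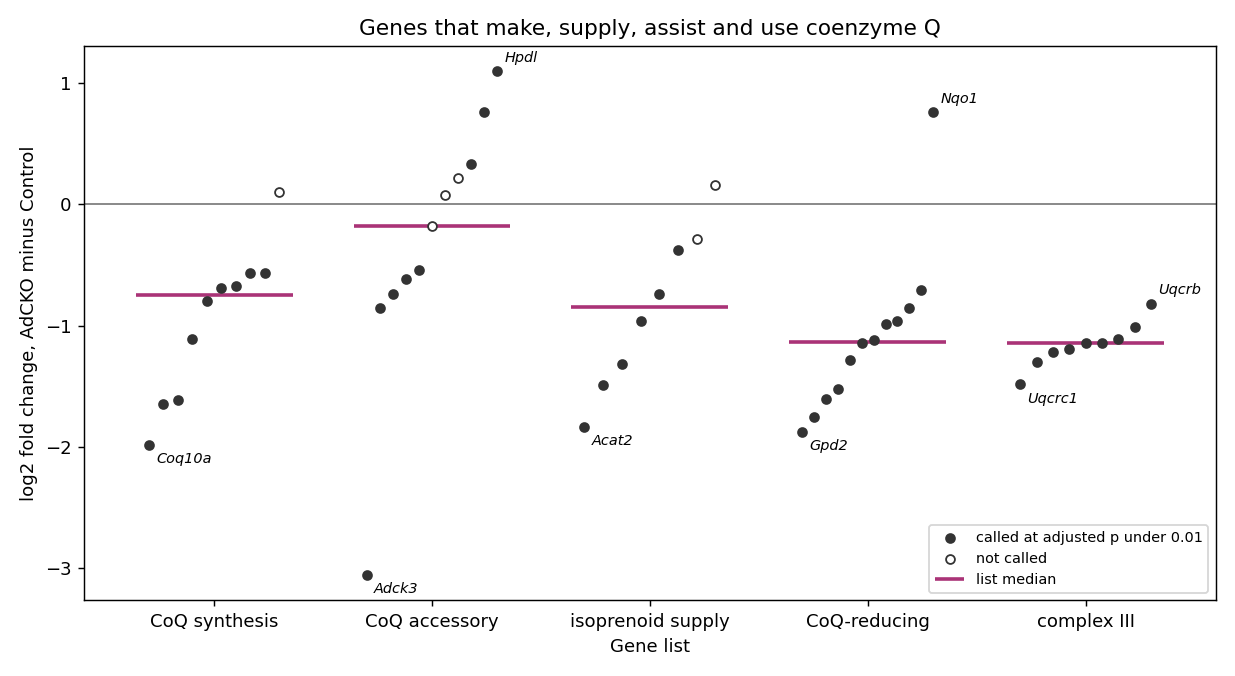
Log2 fold change (AdCKO minus Control) of every tested gene in 5 lists, with filled points for called genes, open points for genes not called, lines for the list medians and names at the lowest and highest gene of a list where these were called. Medians run from -0.18 for the accessory genes to -1.14 for complex III, and Adck3 lies lowest of all genes shown.

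Within AdCKO, replicate 5 had the highest value for 7 of the 10 coenzyme Q genes and replicate 4 the lowest value for 5 of them. Replicate 5 also had the highest mean log2 value of the oxidative phosphorylation subunits (10.9, against 10.4 to 10.8 in the others) and the highest summed brown adipocyte markers, and replicate 4 had the lowest of both. The part of these in the spread of the coenzyme Q genes was not tested. Without AdCKO replicate 5, 9 genes were still lower, with log2 fold changes of -2.04 for Coq10a, -1.73 for Coq6 and -1.70 for Coq9.

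Coq10a had the smallest p of the 9 genes that fell. The genes whose centred log2 values lay closest to it over the 10 libraries were Prelp (root mean square difference 0.12), Acad11 (0.14) and Cntnap1 (0.16), against a median difference of 1.01 over the tested genes. Their log2 fold changes were -1.84, -1.78 and -2.01. The closest of the other coenzyme Q genes was Coq9, at 0.24.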

How the data were processed

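PolyA RNA-seq libraries of iBAT, 5 Control and 5 AdCKO mice, were grouped by the labels. The authors aligned the reads with STAR to mm9, used iRNA-seq to count those in exons of 1 RefSeq transcript per gene, and deposited a signal: reads normalized with DESeq2 and divided by exon length. A step that moderated low values between samples is not specified, 0 of the values are 0, and the sequencing depth is unknown. The submitters' processing notes name mm9, STAR and DESeq2. The deposited log2 fold changes, adjusted p-values and 2 lists of called genes hold the authors' comparison and were not used.

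Genes with a mean of at least 10 in either group (11244 of 15075) were tested on log2(value + 1) with limma 3.58.1 (R 4.3.3, lmFit and eBayes with trend, two-sided, Benjamini-Hochberg, threshold 0.01). The test was checked on simulated data. Fold changes on this scale understate those of low genes. Windows were read from mm9 with pysam 0.24.0. The members and gene lists were chosen with earlier results of these data known. The text names all 10 members, Crls1, up to 4 genes per list with the smallest p plus called genes against the list's majority, and the 3 genes nearest to the member with the smallest p. Hmgcs1 was not analysed here. Alternatives covered pseudocounts, filters, scaling, limma settings, a replicate block, a muscle covariate and left-out libraries.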

Additional observations from a re-analysis of the deposited data

Results flagged for a closer look

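In 62 groups of 5 libraries (the named genes in Control and in AdCKO), 5 held a library set apart from the other 4 by more than 0.71 of the group's range, the 95% limit of Dixon's test, and chance gives about 1 in 20. Coq2 in AdCKO replicate 4 was 209.6 normalized reads per kb, against 179.7 to 184 in the other AdCKO libraries. Coq5 in Control replicate 2 was 626, against 537 to 558 in the other Control libraries. Adck3 in AdCKO replicate 5 was 628, against 205 to 301. Sdha in the same library was 3728, against 2365 to 2714. Uqcrc1 in Control replicate 2 was 8699, against 7091 to 7394.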

How the results depend on the processing

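At equal library totals, 4 of the 10 genes were lower and 1 higher, 2 accessory genes were lower and 5 higher, 3 isoprenoid genes were lower and 1 higher, and 1098 of all tested genes were lower and 6811 higher (3152 and 2879 as deposited). The log2 fold changes were then 0.58 for Pdss1, -0.32 for Pdss2, -0.087 for Coq2, -0.091 for Coq3, -0.21 for Coq5 and -0.19 for Coq7. The number lower was 9 in the other 12 alternatives and in all 10 fits that left out 1 library. With quantile normalization 5 genes were lower and 1 higher relative to the oxidative phosphorylation subunits, where Pdss2 (-0.47), Coq2 (-0.035), Coq3 (-0.067), Coq5 (-0.088) and Coq7 (-0.021) reversed, Coq4 (-0.71) was called and Pdss1 was 0.45, and 5 complex III genes were lower. The number higher relative to the subunits was 2 without limma's trend, 1 with the muscle covariate, 1 without AdCKO replicates 1, 2 and 4 (added after seeing the data), and 2 to 5 when 1 library was left out. Leaving out 1 library put Pdss1 between -0.012 (without Control replicate 5, reversed) and 0.17. The cause of these changes was not tested. Without depth, the counting error of low values such as Pdss1 cannot be given.

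Libraries of the 2 groups share only a number: deviations of same-numbered libraries correlated at -0.07, 0.09, -0.17, -0.27 and 0.10. With the replicate number as a block, 9 genes were lower and 2 higher relative to the subunits, and Adck4 was no longer called (limma adjusted p = 0.012).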
